A study of Mus musculus with 6 samples.

Results

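The Ifi200 genes of mouse chromosome 1 encode PYHIN proteins, interferon-inducible proteins that carry a pyrin domain, a DNA-binding HIN domain, or both. The family was studied here through the 10 genes named Ifi202b, Ifi203, Ifi204, Ifi205, Ifi206, Ifi207, Ifi208, Ifi209, Ifi211 and Ifi213, which were picked by symbol from a table of 49492 genes, and all 10 were found in it. RNA came from HL-1 cells, a mouse line derived from atrial cardiomyocytes of transgenic animals expressing SV40 large T antigen. All cells were exposed to palmitic acid, a saturated fatty acid used to mimic lipid overload. They had been transfected with a vector (3 libraries) or with ZNF593-AS, a human long noncoding RNA (3 libraries). The design has no group without palmitic acid. The titles name ZNF593-AS for all 3 treated libraries, while the treatment fields of replicates 2 and 3 name ZNF594-AS and ZNF595-AS.

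PYHIN proteins bind DNA or other proteins through the HIN domain and recruit partners through the pyrin domain. Through these contacts they take part in sensing of DNA in the cytosol and nucleus, in inflammasome assembly and in control of transcription and cell growth. p204, the product of Ifi204, has been reported to act in mice upstream of the adaptor STING in the type I interferon response to DNA. A like role is reported for IFI16 in human cells. p202, the product of Ifi202b, lacks a pyrin domain and restrains the AIM2 inflammasome. Interferon induces most of the genes, which arose by duplication within the cluster and remain alike in sequence.

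The libraries held 51470457 to 84547615 counts. Cardiac identity was weak: of 20 atrial cardiomyocyte markers, 15 averaged under 1 CPM (counts scaled to library size) over the 6 libraries and Nppa, Sln and Kcna5 had no count at all, while the troponin gene Tnnt2 was at 89.2 ± 5.99 CPM (SD, n = 3) with vector and 97.4 ± 8.62 CPM (SD, n = 3) with ZNF593-AS. PYHIN genes have been studied in blood cells, among other cells. By the same mean over all 6 libraries, 13 of 16 macrophage markers were under 1 CPM, and the summed level of the list was 10.8 to 13.3 CPM in the vector and 13.5 to 14.4 CPM in the ZNF593-AS libraries. Of 10 lymphocyte markers 8 were under 1 CPM, with sums of 8.91 to 10.3 and 4.54 to 5.47 CPM. The B cell genes Cd79a, Cd79b and Ms4a1 were at 0 in every vector library. Of the lymphocyte list Pax5 fell (4.27 ± 0.545 to 0.284 ± 0.109 CPM) and of the macrophage list Cd68 rose (4.55 ± 0.781 to 6.28 ± 0.443 CPM). All 8 endothelial markers were under 1 CPM by that mean, although Egfl7 was at 1.12 CPM with ZNF593-AS (0.867 CPM with vector), and the list summed to 1.85 to 2.23 and 2.15 to 2.78 CPM. Of 10 fibroblast markers 3 were under 1 CPM by that mean, namely Dcn, Lum and Thy1. The whole list summed to 3089 to 3321 and 2905 to 2972 CPM, and 3 of it fell and 1 rose. Most of the sum came from Vim (2077 CPM with vector, 1969 CPM with ZNF593-AS) and Fn1 (606 and 545 CPM). The part of these lists in the results was not tested. Nothing in the labels says that replicates came from separate cultures. The p-values therefore reflect only how much these libraries vary, which may be technical variation.

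The members lie between positions 173468485 and 174031810 of GRCm38 chromosome 1, a span of 563.3 kb. Along this span 8 were on the minus strand, and Ifi208 and Ifi209 were on the plus strand. RefSeq promoter windows of 300 bases (250 before and 50 after an annotated start, GRCm38.p6) were found for 9 of the 10, all but Ifi204. They were searched on both strands for the letters GAAA, any 2 bases and GAAA again, a core of the element bound by interferon regulatory factors and ISGF3, and for TTCNNNGAA, the core of the STAT dimer site. At least 1 window of 7 of the 9 members held this GAAA pair, against 3.99% of 27025 genes with such windows. The members arose by duplication, so the 7 are not independent, and the search itself fixed the GAAA letters. The stretches around the match were almost the same in Ifi206, Ifi208 and Ifi213. They were less closely alike in Ifi205, Ifi211 and Ifi207, and Ifi203 differed more before the match. They are shown in lower case with the match in capitals, each 5′ to 3′ on the strand of the gene.

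Ifi205 (chr1:174031860-174031909, minus strand): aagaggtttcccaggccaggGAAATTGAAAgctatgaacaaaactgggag
Ifi211 (chr1:173913054-173913103, minus strand): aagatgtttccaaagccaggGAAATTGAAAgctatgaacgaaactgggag
Ifi207 (chr1:173741821-173741870, minus strand): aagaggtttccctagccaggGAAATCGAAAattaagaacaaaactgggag
Ifi206 (chr1:173491329-173491378, minus strand): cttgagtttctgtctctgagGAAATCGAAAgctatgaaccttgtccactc
Ifi208 (chr1:173673587-173673636, plus strand): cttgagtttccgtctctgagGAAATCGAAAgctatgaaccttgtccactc
Ifi213 (chr1:173599316-173599365, minus strand): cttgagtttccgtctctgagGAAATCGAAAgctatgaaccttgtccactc
Ifi203 (chr1:173942498-173942547, minus strand): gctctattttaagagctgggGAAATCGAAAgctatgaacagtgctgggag

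In 5 of the 7 the matched letters were GAAATCGAAA and in Ifi205 and Ifi211 they were GAAATTGAAA. The match began 134 bases before the annotated start in Ifi205, 37 in Ifi211, 41 in Ifi207, 40 in Ifi206, 58 in Ifi208, 73 in Ifi213 and 35 in Ifi203. The Ifi205 window held a second match, on the other strand and after the start. Of the RefSeq windows of Ifi203 only the more downstream held a match. The Ifi209 window held none. Its closest stretch to the matching stretch of Ifi214, another PYHIN gene, is shown because a single base separated it from the motif.

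Ifi214 (chr1:173536007-173536056, minus strand): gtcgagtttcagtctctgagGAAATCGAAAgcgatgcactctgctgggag
Ifi209 (chr1:173630760-173630809, plus strand): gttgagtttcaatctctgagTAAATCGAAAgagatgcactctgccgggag

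Counted from the first base shown, with the Ifi214 base first, the 50-base stretches differed by 5 substitutions, C3T, G12A, G21T, C32A and T45C, of which G21T lay within the 10 letters of the motif. The Ifi202b window held no GAAA pair and was the only one among the members with TTCNNNGAA, a sequence found in windows of 9.55% of genes. It is shown whole beside that of Ifi205, since these genes had the smallest and the largest change of the family (given further on). Both were thus picked by their change. Ifi203, with a match, fell by 2.24-fold, and Ifi209, without a match, by 12.2-fold. However, Ifi209 shares sequence with the higher Ifi214, which has a match (given further on), so its counts may not be its own. A link between matches and changes was not tested. Capitals mark the GAAA pair.

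Ifi205 (chr1:174031706-174032005, minus strand): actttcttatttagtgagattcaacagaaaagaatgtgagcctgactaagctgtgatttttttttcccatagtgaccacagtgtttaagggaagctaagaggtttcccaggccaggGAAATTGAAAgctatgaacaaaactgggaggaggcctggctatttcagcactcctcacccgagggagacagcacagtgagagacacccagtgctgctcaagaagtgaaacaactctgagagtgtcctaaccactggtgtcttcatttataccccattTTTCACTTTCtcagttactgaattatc
Ifi202b (chr1:173982795-173983094, minus strand): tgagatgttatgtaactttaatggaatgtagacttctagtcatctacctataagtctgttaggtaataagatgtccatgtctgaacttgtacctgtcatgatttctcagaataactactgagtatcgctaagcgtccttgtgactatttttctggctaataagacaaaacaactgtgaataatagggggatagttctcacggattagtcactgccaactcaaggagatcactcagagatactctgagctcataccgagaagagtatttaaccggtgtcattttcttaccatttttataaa

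These matches describe letters in the reference strain C57BL/6J and nothing is drawn from their absence. That strain is reported to lack the first exon and upstream region that Ifi202b has in some other strains.

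With ZNF593-AS all 10 members were lower. Genes were tested with edgeR's quasi-likelihood F test on raw counts with TMM scaling, with p-values adjusted by Benjamini-Hochberg over 16473 genes. At an adjusted p under 0.05, 10 of 10 members fell and 0 rose, beside 6.16% of all tested genes called lower and 2.23% called higher (1015 and 368 genes). The split over all genes depended on scaling, with 811 lower and 1284 higher under library totals and 855 and 885 under upper-quartile factors, while 10 of 10 members fell under both. In all 10 the 3 ZNF593-AS libraries lay under the 3 vector libraries, beside 13.4% of all tested genes. The median log2 fold change of the members was -2.78, beside 0.01 over all tested genes. In bulk RNA, fewer cells expressing a gene and less RNA per cell cannot be told apart.

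**Figure D1:**
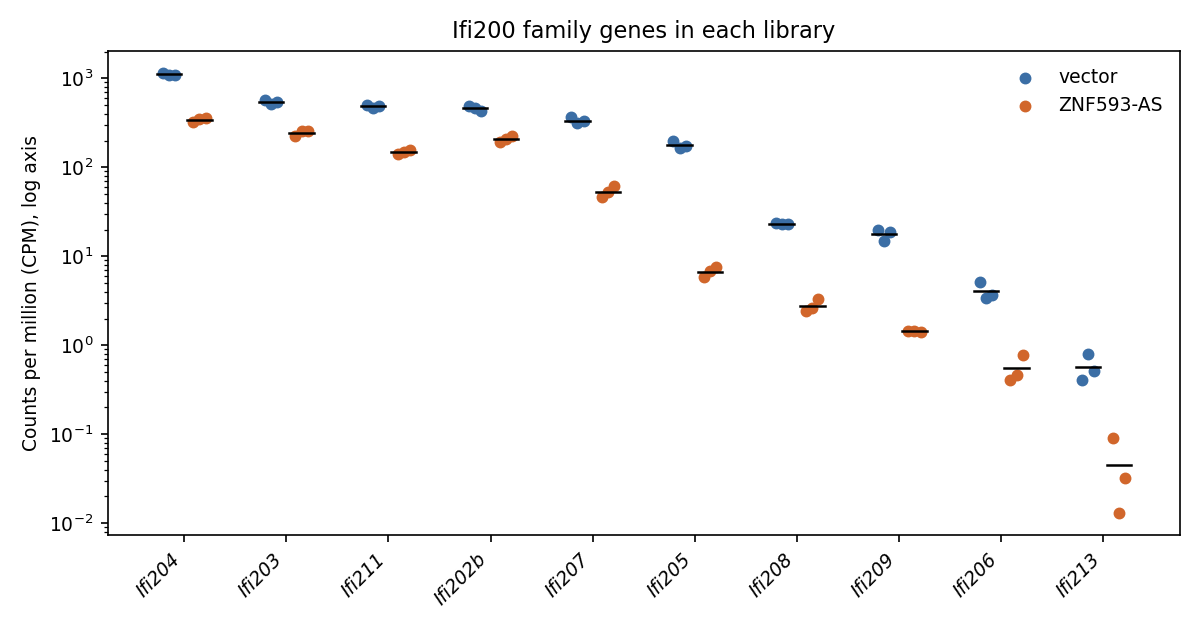
CPM (log axis) of the 10 members in each library, 3 points per group with the mean as a bar, in order of mean vector CPM. In every member the ZNF593-AS points lie under the vector points, and the gap is widest for Ifi205, from a mean of 179 to 6.75 CPM.

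Ifi204, whose product is reported to sense DNA, had the highest level per kb with vector. With vector, replicates 1 to 3 had 1156, 1096 and 1100.0 CPM, and with ZNF593-AS, in the same order, 327, 345 and 361 CPM. The groups were tight and far apart, with a 3.24-fold fall (log2 fold change -1.70 ± 0.07, SE, edgeR adjusted p = 1.98e-11). The gene spans 173747293 to 173766943.

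Ifi202b (173962568 to 173982744), whose product opposes AIM2, stood at 491, 459 and 434 CPM with vector and at 194, 209 and 226 CPM with ZNF593-AS. It changed least in the family, by 2.20-fold (-1.14 ± 0.07, edgeR adjusted p = 6.86e-09). All 3 treated libraries lay under the lowest vector library. Ifi203 (173920407 to 173942672), which encodes a nuclear PYHIN protein, moved by nearly the same amount, from 578, 521 and 543 CPM to 224, 255 and 254 CPM (2.24-fold, -1.16 ± 0.07, edgeR adjusted p = 3.94e-09).

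Ifi211 (173896345 to 173913046), also known as Mnda, stood at 508, 466 and 487 CPM with vector and 140, 147 and 157 CPM with ZNF593-AS. Its 3.29-fold fall (-1.72 ± 0.07, edgeR adjusted p = 1.42e-11) was close to that of Ifi204. Ifi207 (173723430 to 173741809), whose product has been tied to cytokine transcription in mouse macrophages, stood at 368, 312 and 328 CPM with vector and at 46.1, 52.4 and 61.9 CPM with ZNF593-AS. It fell further, by 6.28-fold (-2.65 ± 0.10, edgeR adjusted p = 6.97e-11), and the groups lay far apart.

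Ifi205 (174011998 to 174031810), whose product has been reported to control expression of the inflammasome adaptor ASC in mouse macrophages, showed the largest fall. It went from 197, 166 and 174 CPM with vector to 5.92, 6.80 and 7.53 CPM with ZNF593-AS, a 26.6-fold change (-4.74 ± 0.10, edgeR adjusted p = 1.28e-14). By log2 fold change it ranked 18th among the 1015 genes called lower, while Ifi202b ranked 394th. The adaptor gene itself, Pycard, was at 0.0532 ± 0.0258 CPM with vector and 0.0680 ± 0.0550 CPM with ZNF593-AS, under the filter for testing.

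The remaining members had fewer counts. Ifi209 (173630917 to 173647928), also known as Pyhin1, stood at 19.8, 14.9 and 18.6 CPM with vector and at 1.46, 1.46 and 1.42 CPM with ZNF593-AS (12.2-fold, -3.61 ± 0.12, edgeR adjusted p = 2.08e-12). Ifi208 (173673675 to 173698392), also named Pydc3 for a pyrin domain without a HIN domain, stood at 23.5, 23.3 and 23.2 CPM and at 2.44, 2.61 and 3.31 CPM (8.44-fold, -3.08 ± 0.10, edgeR adjusted p = 2.08e-12). Ifi208 was nearly level within the vector group and Ifi209 within the ZNF593-AS group. Replicates varied more for Ifi209 with vector (SD 2.55 CPM) and for Ifi208 with ZNF593-AS (SD 0.464 CPM). For both genes the groups did not come near each other.

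Ifi206 (173468485 to 173491041) stood at 5.08, 3.42 and 3.69 CPM with vector and at 0.412, 0.467 and 0.775 CPM with ZNF593-AS (7.53-fold, -2.91 ± 0.23, edgeR adjusted p = 1.23e-07). Ifi213 (173566284 to 173599274), also named Pydc4, was close to the limit of detection, with 22, 40 and 37 counts in the vector and 8, 1 and 2 counts in the ZNF593-AS libraries. Its estimate of -3.51 ± 0.53 (edgeR adjusted p = 0.000218) is the least precise of the family. It became -4.59 without ZNF593-AS replicate 1, the library with 8 counts, and -2.60 with that library as the only treated one.

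**Figure D2:**
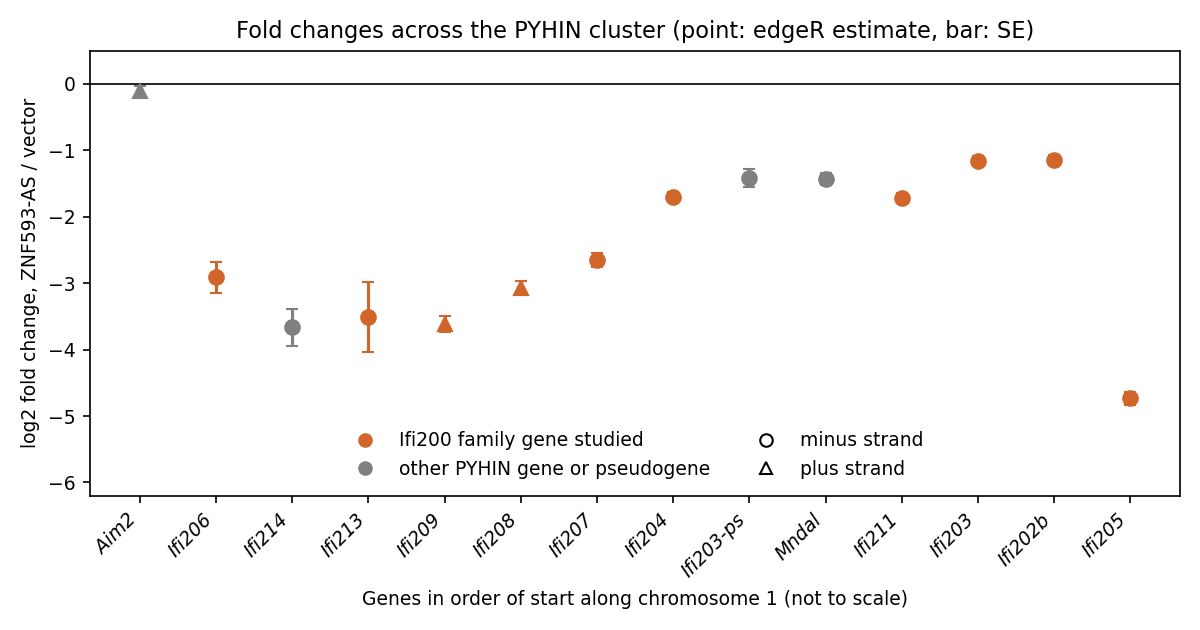
Log2 fold change (ZNF593-AS over vector, edgeR estimate with SE) of the 10 members and of Aim2, Ifi214, Mndal and Ifi203-ps, in order along chromosome 1, with triangles for the plus strand. Aim2 sits at -0.11, the run from Ifi204 to Ifi202b between -1.72 and -1.14, and Ifi205, the last gene, at -4.74.

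Read along the chromosome, neighbouring members had falls of like size. From Ifi206 to Ifi207 the 5 members fell by 6.28-fold to 12.2-fold. The next 4 members, Ifi204, Ifi211, Ifi203 and Ifi202b, fell by 2.20-fold to 3.29-fold, and Ifi205, beyond them, by 26.6-fold. Differences between these stretches were not tested.

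The other PYHIN genes of the cluster did not all follow. Aim2, which encodes the cytosolic DNA receptor that nucleates an inflammasome, ends 2445 bases before Ifi206 and lies on the opposite strand. It stood at 22.9, 23.4 and 20.3 CPM with vector and at 20.04, 20.9 and 20.7 CPM with ZNF593-AS. The groups overlapped, and the gene did not pass the test (log2 fold change -0.11 ± 0.07, edgeR adjusted p = 0.452). Ifi214, at 135, 105 and 127 CPM with vector and 6.72, 9.06 and 13.5 CPM with ZNF593-AS, fell (-3.66 ± 0.28, edgeR adjusted p = 0.000793). Mndal went from 904, 757 and 785 CPM to 271, 303 and 331 CPM (-1.43 ± 0.09, edgeR adjusted p = 2.99e-09). The pseudogene Ifi203-ps had lower counts as well, from 10.3 ± 1.44 to 3.88 ± 0.716 CPM (-1.41 ± 0.13). It shares sequence with the much higher Ifi203 (given further on), so these counts may not be its own.

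Few genes around the cluster were expressed. Within 500 kb before the first member, 14 genes were listed, of which 11 had no count and 2 were tested, Aim2 and Cadm3, a cell adhesion gene (0.561 ± 0.0880 and 0.292 ± 0.0511 CPM). Within 500 kb after the last, 23 were listed, 16 had no count and 3 were tested, among them the olfactory receptor gene Olfr432 (0.676 ± 0.0771 and 0.547 ± 0.161 CPM) and Mptx1 (0.969 ± 0.495 and 0.929 ± 0.122 CPM). Of the named genes Aim2, Cadm3, Olfr432 and Mptx1, none passed edgeR's test. Between the members, 6 other genes were tested and 5 fell, namely Ifi214, Mndal, Ifi203-ps and the unnamed loci Gm38050 and Gm18752. All 5 share transcript sequence with a member or with Mndal, so their falls may not be independent of the members.

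Per kb of exon length, which allows levels of different genes to be compared, Ifi204 led with vector (314 ± 9.43 CPM per kb, SD, n = 3). Ifi211 (273 ± 11.8) and Ifi202b (272 ± 16.9) followed with overlapping ranges. Then came Ifi207 (96.5 ± 8.25), Ifi203 (81.6 ± 4.27) and Ifi205 (42.9 ± 3.79), each apart from its neighbours in the order. Ifi209 (5.01 ± 0.719) and Ifi208 (4.43 ± 0.0305) overlapped, and Ifi206 (1.33 ± 0.292) and Ifi213 (0.0834 ± 0.0288) were last. With ZNF593-AS no neighbours in the order overlapped, and the order differed. Ifi202b now led (123 ± 9.44 CPM per kb), ahead of Ifi204 (96.7 ± 4.75), Ifi211 (82.8 ± 4.90), Ifi203 (36.4 ± 2.60), Ifi207 (15.4 ± 2.28) and Ifi205 (1.62 ± 0.193).

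The members' CPM summed to 3173 ± 152 with vector and to 1011 ± 66.2 with ZNF593-AS, 3.14-fold lower. As a share of the family total in counts per kb, a measure that does not depend on how libraries are scaled, Ifi202b took 25.2%, 25.6% and 24.0% in the vector and 34.3%, 34.4% and 34.9% in the ZNF593-AS libraries. Ifi203 also took more, 7.49% ± 0.126 against 10.2% ± 0.359 (SD, n = 3 each). Ifi205 went from 3.93% ± 0.165 to 0.451% ± 0.0242 and Ifi207 from 8.84% ± 0.351 to 4.28% ± 0.352. Ifi204 changed little, from 28.8% ± 0.482 to 27.1% ± 0.481, as did Ifi211, from 25.0% ± 0.497 to 23.2% ± 0.244. The groups did not overlap for any of the 10 shares. The shares of a library add up to a fixed whole, so the 10 are not independent. That of Ifi213 rests on 8, 1 and 2 counts with ZNF593-AS. In a 2-sided exact permutation test each gave p = 0.1, the smallest that 3 against 3 libraries allow, and 0.1 after adjustment over the 10.

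**Figure D3:**
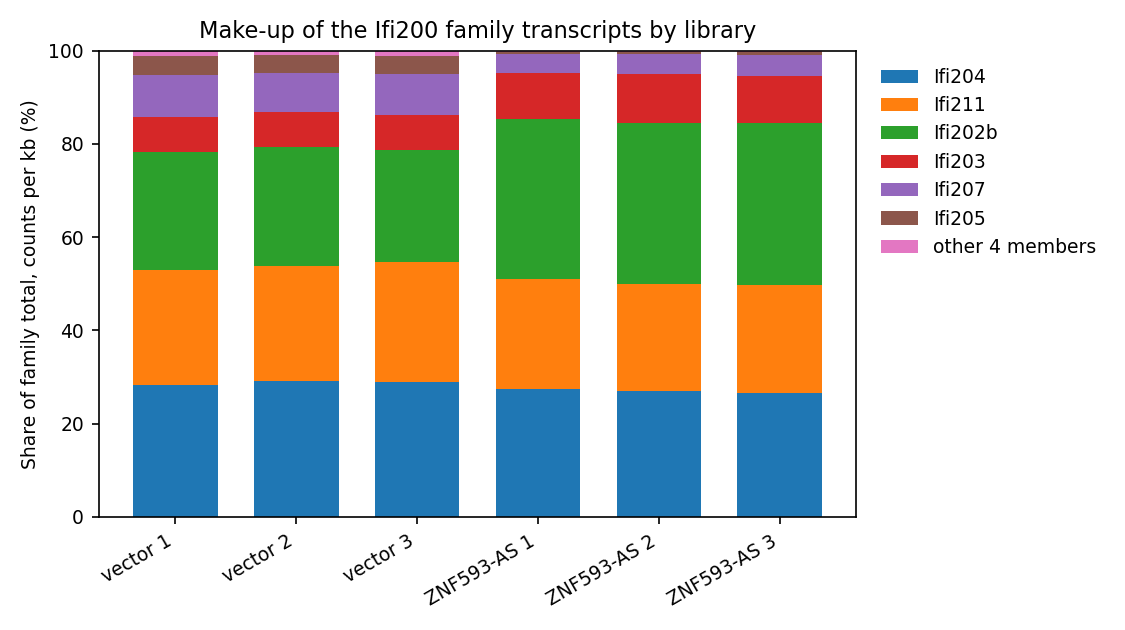
Share of each member in the family total (counts per kb of exon length, %) for each library, stacked. Ifi202b takes 24.0% to 25.6% of the vector bars and 34.3% to 34.9% of the ZNF593-AS bars, and the Ifi205 band shrinks from 3.93% to 0.451% on average.

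Members with a higher level in the vector libraries tended to fall less. Across the 10 members the log2 vector level per kb and the log2 fold change had Pearson's r of 0.58 and Spearman's rho of 0.66, given as a description, since all values come from the same 6 libraries and the level enters the fold change. Ifi205 stood off this relation, with a level in the middle of the order and the largest fall. Exon length and fold change had a rho of -0.38.

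**Figure D4:**
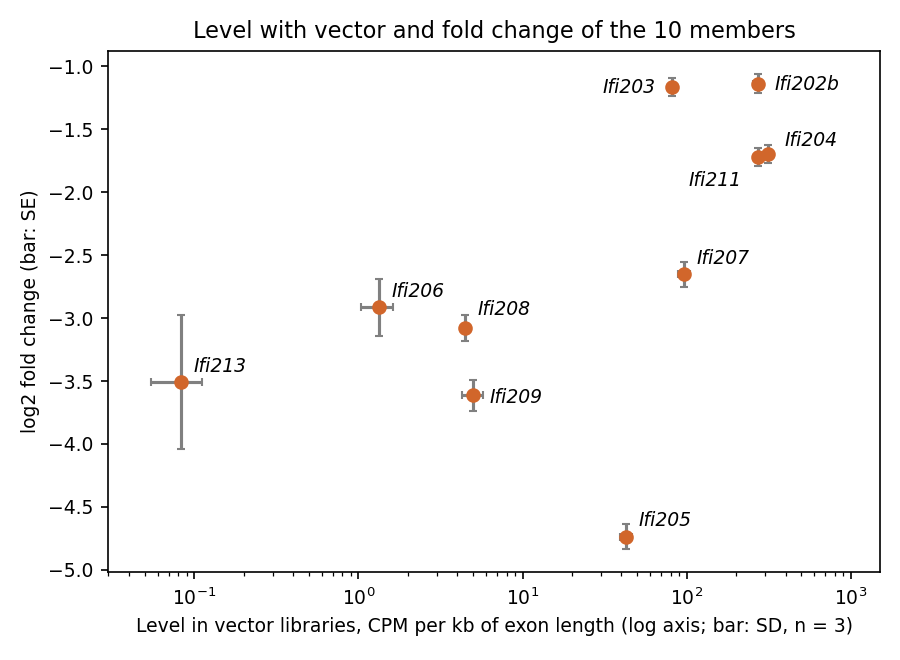
Vector level (CPM per kb, log axis, bar SD, n = 3) against log2 fold change (bar SE) for the 10 members. The 4 members between -1.72 and -1.14 are all at 81.6 CPM per kb or more. Ifi207, at 96.5 CPM per kb, is also above that level but at -2.65. Ifi205, at 42.9 CPM per kb, has the largest fall.

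How far these values belong to single genes depends on the sequence that the genes share. Of all 50-base stretches in GENCODE M21 transcripts of Ifi211, 72.8% also occur in transcripts of another gene, with 44.7% in Ifi205, 30.1% in Ifi204 and 17.1% in Mndal. The share was 33.7% for Ifi209, nearly all with Ifi214, 25.6% for Ifi206 and 20.9% for Ifi208. It was 20.02% for Ifi204, 18.6% for Ifi205, 15.6% for Ifi213, 12.4% for Ifi203, 7.29% for Ifi207 and 0 for Ifi202b. Outside the members it was 26.3% for Ifi203-ps, with 24.3% in Ifi203. How reads that fit several genes were counted is not given in the sources used here. The values of single genes are therefore uncertain, above all those of Ifi211, Ifi209 and Ifi206, which share most. Those of Ifi213, at 0.570 CPM with vector, are also uncertain, since it shares 13.6% with Ifi208, at 23.3 CPM. Ifi209, at 17.8 CPM with vector, shares 33.4% with Ifi214, at 122 CPM, so its counts may not be its own. Ifi205 shares 18.5% with Ifi211. With ZNF593-AS these were at 6.75 and 148 CPM, so the size of the Ifi205 fall is uncertain too. The only exon bases that a member shared with another gene by position were 37 bases of Ifi203 and Mndal, on the same strand.

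**Figure D5:**
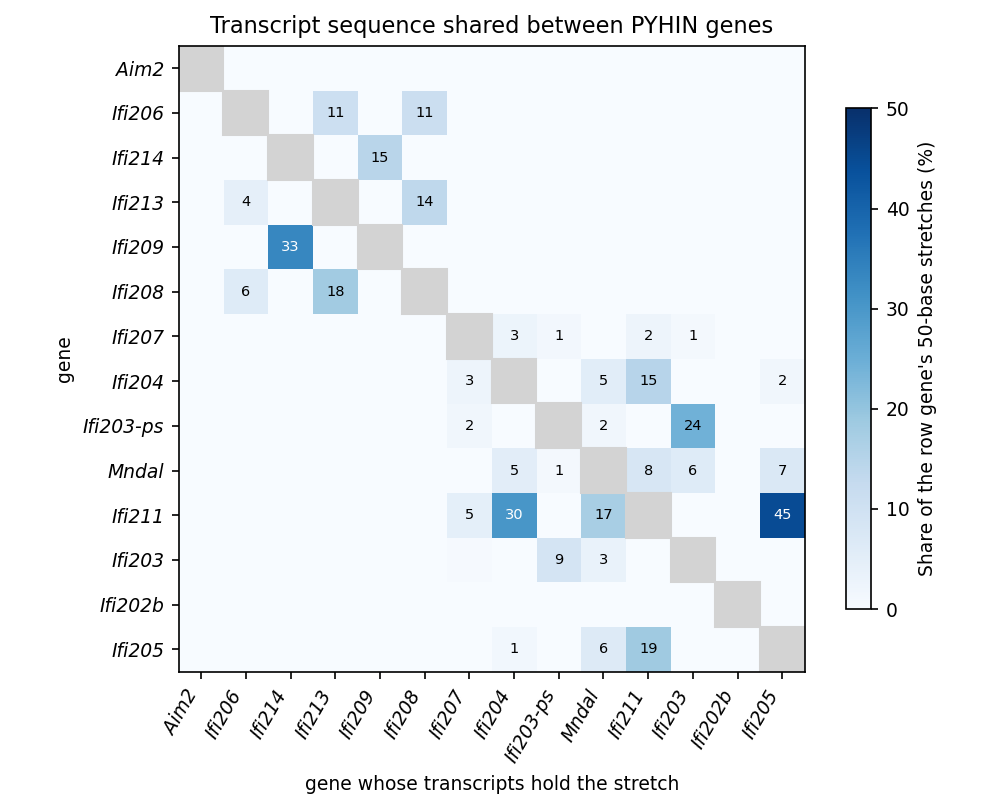
Share of the 50-base stretches of each row gene (%) that occur in transcripts of each column gene, for the 14 PYHIN genes and pseudogene in order along chromosome 1; values of 1% or more are written in. Ifi206, Ifi208 and Ifi213 share with each other, Ifi209 shares with Ifi214, the genes from Ifi207 to Ifi205 form a further set, and Ifi202b shares none.

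Sums over genes that share most with each other depend less on that division, but not fully, since some members of a sum also share stretches with genes outside it, as Ifi206 does with Gm18752 (9.80%) and Mndal with Ifi203 (6.19%). Ifi204, Ifi205, Ifi211 and Mndal together went from 2598 ± 148 to 801 ± 56.2 CPM, 3.24-fold lower. Ifi205 with Ifi211, a sum made up mostly of Ifi211, went from 666 ± 36.6 to 155 ± 9.55 CPM, 4.31-fold lower. Ifi206, Ifi208 and Ifi213 together went from 27.9 ± 0.894 to 3.38 ± 0.643 CPM, 8.26-fold lower, and Ifi209 with Ifi214 from 139.9 ± 18.0 to 11.2 ± 3.42 CPM, 12.5-fold lower. Ifi203 with Ifi203-ps went from 558 ± 30.01 to 248 ± 17.7 CPM, 2.25-fold lower, and with Mndal added from 1373 ± 108 to 549.97 ± 46.3 CPM, 2.50-fold lower. In each sum the ZNF593-AS libraries lay under the vector libraries, as they did in 13.4% of all tested genes taken singly. The sums were not tested.

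Genes that work with these proteins were followed in 4 lists, each to be read beside the 6.16% of all tested genes called lower and the 2.23% called higher. Of 11 tested genes of DNA sensing around p204, 8 fell and 0 rose (median log2 fold change -0.92). The 3 with the smallest p were Samhd1, a dNTP hydrolase that limits cytosolic DNA (119 ± 7.69 to 23.5 ± 3.21 CPM, -2.34 ± 0.09), Trex1, a DNA exonuclease (-2.15 ± 0.15), and Zbp1, a sensor of Z-form nucleic acid (-3.70 ± 0.17). Named outside the rule for their place in the pathway, Tmem173, which encodes STING, was at 1.03 ± 0.274 and 0.540 ± 0.0735 CPM (-0.92 ± 0.26, edgeR adjusted p = 0.0351), and Mb21d1, which encodes the DNA sensor cGAS, at 16.0 ± 1.65 and 11.3 ± 0.682 CPM (-0.49 ± 0.09).

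Of 8 tested genes listed around the AIM2 inflammasome, which p202 and p205 are known to modulate, 4 fell and 1 rose (median -0.48). This stands beside 6.16% and 2.23% over all tested genes. The list also holds genes of the NLRP3 inflammasome, and neither Aim2 itself nor Nlrp3 passed. Casp4 (-0.71 ± 0.06), Casp1 (-1.09 ± 0.10) and Il18 (-1.50 ± 0.18), which encode the inflammatory caspases and a cytokine they help mature, fell, and Nek7, a kinase of the NLRP3 inflammasome, rose (0.28 ± 0.06). Of 13 tested genes of interferon signalling, the pathway that induces the family, 8 fell and 0 rose (median -0.45), beside the same 6.16% and 2.23%. The transcription factor gene Irf1 fell (-2.11 ± 0.07), as did Stat2 (429 ± 23.4 to 66.4 ± 13.5 CPM, -2.69 ± 0.13) and Irf9 (197 ± 3.80 to 69.7 ± 11.8 CPM, -1.50 ± 0.10), which encode subunits of ISGF3.

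Of 20 tested genes whose proteins are reported to bind p202 or p204, 3 fell and 17 did not pass (median -0.03), beside 6.16% called lower over all genes. They were Rbl1, the pocket protein p107 (25.7 ± 2.08 to 17.5 ± 1.66 CPM, -0.55 ± 0.08), Nfkb1, an NF-kB subunit (-0.31 ± 0.06), and Myog, a muscle regulator (0.855 ± 0.0936 to 0.410 ± 0.0366 CPM, -1.07 ± 0.26). Gata4, a cardiac transcription factor bound by p204 in mouse heart cells and named outside the rule, was at 9.50 ± 0.378 and 9.28 ± 0.943 CPM (-0.03 ± 0.10, edgeR adjusted p = 0.899).

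The genes most like the family in pattern over the 6 libraries, by Pearson's r of log2(CPM + 0.5) with the summed CPM of the members, were AA467197, Slfn1, Tgtp1, Slfn9 and Gbp2, with r of 0.9996 to 0.9998. Slfn1 and Slfn9 belong to the Schlafen family, and Tgtp1 and Gbp2 encode interferon-inducible GTPases. Their log2 fold changes were -2.15 ± 0.08, -4.92 ± 0.25, -4.14 ± 0.12, -3.38 ± 0.11 and -4.11 ± 0.17. Among 10945 genes compared, 213 had an r above 0.99. In this design r mostly reflects the difference between the groups and not the size of the fall.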

How the data were processed

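Total RNA of 6 HL-1 samples was sequenced, per the labels. The authors deposited raw counts per gene with exon lengths, per the file headers. The submitters' processing notes name CASAVA, cutadapt 1.2.1, Bowtie2, TopHat2 and GRCm38, without roles. Which tool made the counts, with what strand setting and rule for reads matching several genes, is not given in the sources used here. In each library 2160 to 2359 genes had a count of 2 and only 365 to 492 a count of 1, as when mates are counted singly, so counts overstate fragments.

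Libraries were grouped by title. Every pair of replicates differed beyond sampling noise (halved counts, lowest chi-square per gene 9.95). Genes were filtered with filterByExpr (minimum count 10), leaving 16473, scaled by TMM and tested with edgeR 4.0.16 in R 4.3.3 (quasi-likelihood F test with robust priors, adjusted by Benjamini-Hochberg, called at 0.05), after the pipeline was tested on simulated data. The SE is the size of the log2 fold change divided by the square root of F. CPM uses TMM-scaled library sizes, and the biological coefficient of variation was 7.69%. DESeq2 1.42.0 and limma 3.58.1 served as alternatives.

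Genes named by rule are the 10 members, the other PYHIN genes in the table, up to 3 called genes per direction and list by smallest p, the nearest tested genes within 500 kb and the 5 genes most like the family. Some genes that the rule or lists hold are not reported here. The members and lists were chosen with earlier results of these data known. Sequences are from RefSeq (GRCm38.p6) and GENCODE M21 (GRCm38), and gene coordinates are those of the deposited table.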

Additional observations from a re-analysis of the deposited data

How the results depend on the processing

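Under 16 alternatives (other scaling, DESeq2, limma-voom, other filters, halved counts, a replicate block, ZNF593-AS replicate 1 alone, and each library left out in turn) the count of members called lower remained 10 wherever all were tested and 9 with genes of at least 1 CPM alone, where Ifi213 was not tested, and 0 were called higher. Without single libraries the log2 fold change ranged from -4.82 to -4.65 for Ifi205, from -1.19 to -1.09 for Ifi202b and from -4.59 to -3.07 for Ifi213. Over all genes, 1015 were called lower and 368 higher. With library totals these were 811 and 1284, with upper-quartile factors 855 and 885, with no filter 1111 and 561, and with ZNF593-AS replicate 1 as the only treated library, assumed to vary like the vector libraries, 630 and 45. Without single libraries, 827 to 962 were lower and 138 to 394 higher, the latter being 209 without vector replicate 1, 234 without vector replicate 2, 138 without ZNF593-AS replicate 2 and 170 without ZNF593-AS replicate 3. In shares of raw counts the log2 ratio of shares was -0.048 for Ifi204 and -0.068 for Ifi211, against -0.089 and -0.11 per kb.

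Replicate numbers did not pair the libraries, with correlations of -0.03, -0.03 and 0.05 between the deviations of same-numbered libraries. With the replicate block 10 members were called lower, and 997 genes were lower and 334 higher over all. Among the members, Ifi213 had the fewest counts and the widest range. PCR duplicates were not marked by molecular identifiers, so counts are not independent molecules.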

Other observations

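Within the groups, the members leaned the same way by library. Vector replicate 1 was the highest of the vector libraries in CPM for 9 of 10 members, beside 33.0% of tested genes and 44.5% of the genes called lower. ZNF593-AS replicate 1 was the lowest of its group for 8 of 10 members, beside 34.9% of tested genes and 46.1% of the genes called lower. Members share sequence and are not independent, and no test was made. The members' median log2 fold change was -2.65 when the former library was left out and -2.64 when the latter was, against -2.78 with all 6.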
